A study of Mus musculus with 6 samples.

Results

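Collagen is secreted by way of a fixed set of helpers, and 10 of their genes were followed here in a calf muscle, the gastrocnemius. Male mice, young or aged, gave the RNA. They were the prolyl hydroxylases P4ha1 and P4ha2, the lysyl hydroxylases Plod1, Plod2 and Plod3, the collagen chaperone Serpinh1, the procollagen processing genes Pcolce and Bmp1, and the lysyl oxidases Lox and Loxl1. They were taken as listed symbols, and every probe set that the platform's gene table assigned to exactly 1 of them was kept. This gave 20 probe sets for 10 genes, out of 18192 named genes on the array. The mice were of the strain given as C57B1/6, with a normal karyotype, and received no treatment that the labels name. The 2 groups were 3 arrays of young muscle, replicates 1, 2 and 3, and 3 arrays of aged muscle, replicates 51, 52 and 53. The labels give no age beyond these words, and they do not say whether each array came from a separate animal. P-values therefore reflect how far the arrays of a group differ, which may be technical variation only, and 3 arrays a group limit the precision.

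Collagen chains are modified while they are being made. In the endoplasmic reticulum, prolyl hydroxylases make the hydroxyproline that keeps the triple helix stable, lysyl hydroxylases make the hydroxylysine that later carries sugars and crosslinks, and the chaperone encoded by Serpinh1 (also called Hsp47) binds the folded helix. Outside the cell, the metalloproteinase encoded by Bmp1 removes the C-terminal propeptide with the help of the enhancer encoded by Pcolce. Lysyl oxidases start the crosslinks of collagen and of elastin. In muscle, most of this work is done by fibroblast-like cells between the fibres.

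Signals are linear intensities made with MAS5, in arbitrary units, and every array had been scaled to a trimmed mean of 1500. Array medians ran from 637 to 833. A probe set was tested if its mean log2 signal over the 6 arrays reached 9.08, the median over all probe sets. The mean of a group could still lie below that limit, and such a probe set was tested only through the brighter group. A change is the mean log2 signal of aged muscle minus that of young muscle (n = 3 each), and ± gives its standard error in limma. Adjusted p-values come from limma, with the Benjamini-Hochberg procedure applied to the 22519 tested probe sets. A change passed at an adjusted p under 0.05. All 10 skeletal fibre markers that were looked for as a check of the tissue were measured. The log2 ratio of 3 prime to 5 prime control signal, a measure of RNA quality, lay between 1.71 and 1.77 on the young arrays and between 2.00 and 2.86 on the aged ones. The groups did not overlap in that ratio (two-sided exact permutation test, p = 0.1, the smallest that 3 against 3 arrays allow). Fluidics station 1 processed the young arrays and aged replicate 51, and station 2 processed aged replicates 52 and 53.

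Of the 10 genes, Pcolce and Serpinh1 fell in aged muscle and none rose. The other 7 genes with a tested probe set did not pass, and Plod1 had only probe sets below the brightness limit. Pcolce was 4.36-fold higher in young muscle, and Serpinh1 2.17-fold. Of the 12 tested probe sets of these genes 2 were called lower, against 0.742% of all tested probe sets, and 0 were called higher, against 0.311%. At an unadjusted p under 0.05 in limma there were 5 of the 12, all of them lower (2 each of Serpinh1 and Pcolce and 1 of Lox), against 5.61% of all tested probe sets in that direction. On these same 5 the 3 aged arrays all lay below the 3 young ones, as on 8.74% of all tested probe sets. The second probe set of Serpinh1, among these 5, reached the brightness limit only through its young arrays. The change was negative for 11 of the 12, against 49.5% of all tested probe sets, and for 8 of the 9 tested genes, against 49.8% of named genes. Over all 20 probe sets, the dim ones included, the change was negative for 17, against 46.5% of the array, and the aged arrays lay below the young ones for 6, against 6.22%. The median change over the 9 tested genes was -0.96, beside 0.0079 over all tested probe sets. RNA of the whole muscle was measured, so fewer cells that make collagen and less RNA per cell cannot be told apart.

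**Figure D1:**
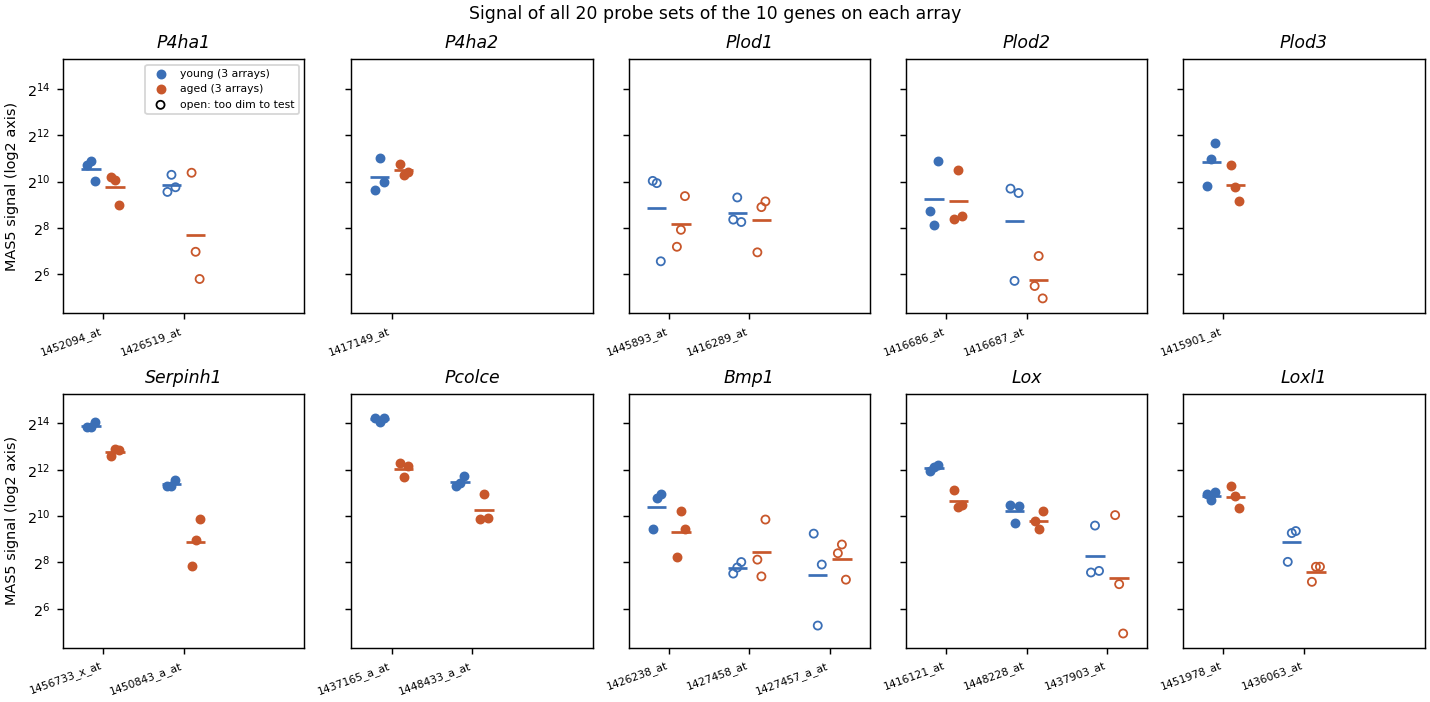
Signal of each of the 20 probe sets (log2 axis, MAS5 units) on the 3 young (blue) and 3 aged (orange) arrays, 1 panel per gene. Points are arrays, bars are means of the log2 signals, and open points mark the 8 probe sets too dim to test. The groups separate fully for both probe sets of Pcolce and of Serpinh1, for the brightest of Lox and for the dim 1436063_at of Loxl1.

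The prolyl hydroxylases did not pass. P4ha1 encodes the more widely expressed catalytic subunit. Its tested probe set, 1452094_at, read 1701, 1914 and 1031 on young replicates 1, 2 and 3, and 1181, 1080 and 513 on aged replicates 51, 52 and 53. The groups overlapped, because young replicate 3 lay below 2 of the aged arrays. The change was -0.79 ± 0.55 (adjusted p = 0.666), with a 95% interval from -1.99 to 0.42. The second probe set, 1426519_at, was too dim to test. It read 751, 1253 and 863 in young muscle, and 1332, 125 and 55.4 in aged muscle, so 1 aged array was the highest of all and the other two were the lowest.

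P4ha2 encodes the alternative catalytic subunit, which is more restricted to matrix-forming cells, and it was the one tested gene of the 10 with a positive change. Its single probe set read 794, 2070 and 1016 on the young arrays and 1751, 1254 and 1376 on the aged ones. The aged values lay inside the range of the young ones. The change was 0.29 ± 0.51 (adjusted p = 0.877), and the interval from -0.82 to 1.39 leaves room for a change in either direction. Without young replicate 1 it was -0.0043.

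The lysyl hydroxylases did not pass either, and their signals were low and scattered. Plod1 encodes the enzyme that acts mainly on lysines within the helix. Both of its probe sets were too dim to test. The brighter, 1445893_at, read 1044, 977 and 94.1 in young and 145, 242 and 662 in aged muscle, and the other, 1416289_at, read 328, 636 and 305 against 123, 476 and 565. Neither separated the groups.

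Plod2 encodes the enzyme that hydroxylates the telopeptides, the short ends where stable crosslinks form. Its tested probe set, 1416686_at, was high on 1 young array (1910, beside 424 and 281) and on 1 aged array (1465, beside 332 and 369). The change of -0.11 ± 1.02 had an interval from -2.34 to 2.11, the widest of the 12 tested probe sets (adjusted p = 0.982). Its sign turned without young replicate 3 (0.71), aged replicate 51 (0.27) or aged replicate 53 (0.19). The dim probe set 1416687_at read 828, 52.3 and 727 in young and 44.9, 110 and 31.0 in aged muscle, with young replicate 2 among the aged values.

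Plod3, whose enzyme also adds sugars to hydroxylysine, read 909, 2016 and 3287 on the young arrays and 1656, 868 and 570 on the aged arrays. The groups overlapped at young replicate 1 and aged replicate 51. The change was -0.96 ± 0.60 (adjusted p = 0.622), with an interval from -2.26 to 0.35. It ranged from -1.46 to -0.14 over 18 alternatives of processing and passed in none of them.

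Serpinh1 fell, and its call was fragile. The brightest probe set, 1456733_x_at, read 14629, 14533 and 16897 in young muscle and 6269, 7662 and 7353 in aged muscle. The lowest young array lay well above the highest aged one. The change was -1.12 ± 0.22 (adjusted p = 0.0315), with an interval from -1.60 to -0.63. The ending of this probe set's name marks probes that may also bind other transcripts. The second probe set, 1450843_a_at, read 2517, 2501 and 3027 against 227, 500 and 949.9, again with no overlap. It gave a greater change with a greater error, -2.49 ± 0.60, and did not pass (adjusted p = 0.0927). The call on the brightest probe set was lost when young replicate 1, 2 or 3 was left out (adjusted p = 0.145, 0.15 and 0.194). Leaving out aged replicate 51 gave an adjusted p of 0.0635, and leaving out aged replicate 52 gave 0.088. The call was also lost when the fit held the RNA quality ratio (-1.16, adjusted p = 0.15) or the station (-1.29, adjusted p = 0.0646) as a covariate. As a gene Serpinh1 had a negative change in all 18 alternatives and passed in 8. The lowest, -2.49, is the second probe set, which stood in where probe sets prone to cross-hybridisation were left out.

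Pcolce fell, with the lowest adjusted p of the 10 genes. Probe set 1437165_a_at read 19238, 17148 and 19297 on the young arrays and 5066, 3258 and 4645 on the aged arrays. Every young value was more than any aged value, and the young values were close together. The change was -2.13 ± 0.25 (adjusted p = 0.000977), with an interval from -2.66 to -1.59, and 0.79% of tested probe sets had a change as low. The second probe set, 1448433_a_at, read 2498, 2780 and 3408 against 931, 1972 and 974. Its groups did not overlap either, but aged replicate 52 lay near the young arrays, and its change of -1.24 ± 0.43 did not pass (adjusted p = 0.306). As a gene Pcolce passed in 17 of 18 alternatives, at -1.68 with its probe sets averaged and between -2.30 and -1.87 in those that used the brightest alone, and in every one of the 6 fits that left out an array (adjusted p 0.000959 to 0.0101). The exception was the fit without a trend of the spread with brightness (adjusted p = 0.179).

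The upstream sequences of the called genes are shown because Pcolce and Serpinh1 fell together, with that of P4ha2 beside them as the tested gene with a positive change. Promoters of 6 of the 10 genes (P4ha1, P4ha2, Plod1, Plod3, Serpinh1 and Pcolce) matched the RefSeq table by symbol, on the build GRCm38.p6. Each run gives the 250 bases before the listed start, 5′ to 3′ on the gene's strand: Pcolce at chr5:137611405-137611654 (minus strand), Serpinh1 at chr7:99353240-99353489 (minus strand) and P4ha2 at chr11:54100674-54100923 (plus strand). Capitals mark matches to GGGCGG, the core of a GC box, and to CCACG, a part of the endoplasmic reticulum stress element, on either strand.
Pcolce: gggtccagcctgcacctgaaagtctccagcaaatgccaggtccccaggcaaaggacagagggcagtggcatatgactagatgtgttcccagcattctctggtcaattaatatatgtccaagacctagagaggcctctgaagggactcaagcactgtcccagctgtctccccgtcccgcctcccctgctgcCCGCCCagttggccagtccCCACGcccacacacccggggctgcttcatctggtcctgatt
Serpinh1: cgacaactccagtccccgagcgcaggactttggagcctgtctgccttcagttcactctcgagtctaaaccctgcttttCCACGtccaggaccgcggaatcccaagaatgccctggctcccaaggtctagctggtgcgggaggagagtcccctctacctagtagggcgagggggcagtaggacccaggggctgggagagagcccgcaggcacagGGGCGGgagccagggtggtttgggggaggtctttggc
P4ha2: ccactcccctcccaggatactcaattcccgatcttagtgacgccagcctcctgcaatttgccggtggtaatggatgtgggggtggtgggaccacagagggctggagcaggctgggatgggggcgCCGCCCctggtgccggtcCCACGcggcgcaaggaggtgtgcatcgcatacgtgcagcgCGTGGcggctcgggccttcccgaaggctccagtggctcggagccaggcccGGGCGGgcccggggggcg
Over the full window of 300 bases, which adds 50 after the start, GGGCGG was found in 5 of the 6 promoters, and in 35.7% of all 32851 promoters in the table. CCACG was found in the same 5 (P4ha1, P4ha2, Plod1, Serpinh1 and Pcolce), and in 32.8% of all. ACGTG, the core of the hypoxia response element, was found in P4ha1, P4ha2, Plod3 and Serpinh1, and in 19.6% of all promoters. One such match overlaps CCACG in Serpinh1, and another does so in P4ha2 after the start. All motifs were searched on both strands. CAGAC, a Smad-binding sequence, was found in Plod1 and Serpinh1 and in 49.6% of all promoters, and TATAAA in P4ha1 and Plod1 and in 13.6%. CCAAT was found in Plod3 (37.4% of all), GAANNTTC, the core of a heat shock element, in Plod1 (7.86% of all), and TGACGTG, part of the unfolded protein response element, in 0 of the 6 (2.01% of all). Both called genes and the gene with a positive change hold GGGCGG and CCACG, so these letters do not separate them. Each match is a description of these letters only.

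Bmp1, the propeptide proteinase that Pcolce assists, did not pass. Its tested probe set, 1426238_at, read 699, 1750 and 1972 in young muscle and 302, 1188 and 694 in aged muscle. Aged replicate 52 lay above young replicate 1, so the groups overlapped. The change was -1.09 ± 0.71 (adjusted p = 0.636), with an interval from -2.63 to 0.44. The dim probe sets 1427458_at and 1427457_a_at had changes of the opposite sign, 0.69 and 0.67. The first of them read 183, 220 and 259 against 278, 168 and 923, so 1 aged array was far above the rest.

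Lox, the main lysyl oxidase of fibrillar collagen and elastin, came close to the threshold. The brightest probe set, 1416121_at, read 3957, 4403 and 4758 in young muscle and 2261, 1337 and 1409 in aged muscle. The groups did not overlap, and all young values lay close together. The change was -1.43 ± 0.35, which is 2.69-fold higher in young muscle, and it did not pass (adjusted p = 0.0966). A stricter brightness filter brought it past the threshold (adjusted p = 0.0447), and so did leaving out aged replicate 51, the aged array with the highest signal (-1.67, adjusted p = 0.0403). It passed in no other alternative. Over all 18 alternatives the adjusted p ranged from 0.0403 to 0.435. Within the first station the change was -0.95 (adjusted p = 0.246). The second tested probe set, 1448228_at, read 1432, 835 and 1391 against 872, 691 and 1192, overlapped, and was at -0.40 ± 0.55. The third, 1437903_at, was dim and scattered, from 30.5 to 1054 among the aged arrays alone.

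Loxl1, the lysyl oxidase that elastic fibres need, had a tested probe set with almost equal groups. It read 1968, 1640 and 2091 in young muscle and 2507, 1872 and 1314 in aged muscle. The change was -0.04 ± 0.40, with an interval from -0.92 to 0.84 (adjusted p = 0.982), and it was 0.03 without young replicate 3 and 0.20 without aged replicate 53. The dim probe set 1436063_at differed in pattern. It read 260, 616 and 654 in young and 143, 224 and 225 in aged muscle, with no overlap, and its change was -1.29, but in a fit of all probe sets without the brightness filter it had an adjusted p of 0.838. The probe sets of Loxl1 therefore disagreed on whether the groups separate.

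**Figure D2:**
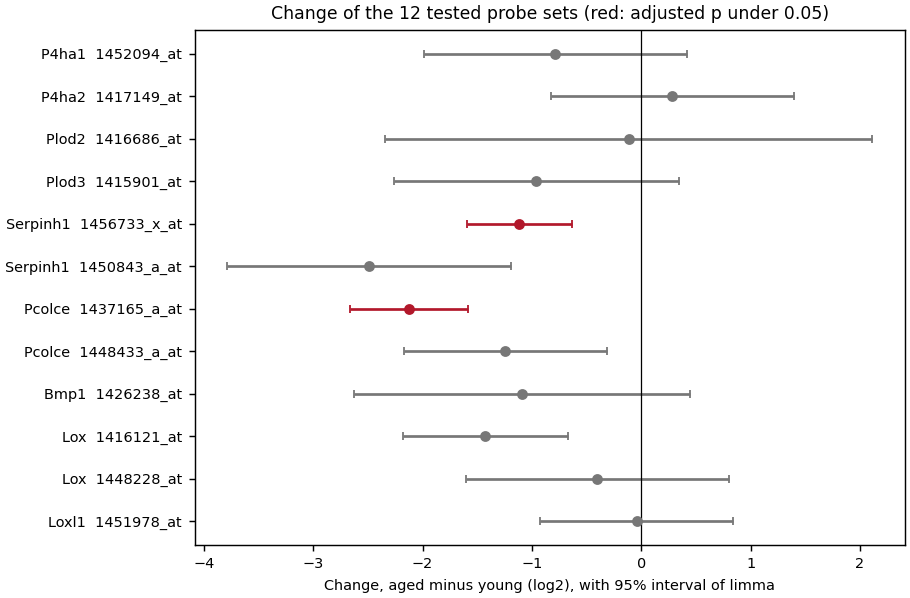
Change (aged minus young, log2) of the 12 tested probe sets, with limma's 95% interval, n = 3 per group. The 2 in red, of Serpinh1 and Pcolce, passed an adjusted p of 0.05. The intervals of Plod2, Bmp1, Plod3, P4ha1, P4ha2 and Loxl1 all include 0.

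The procollagen chains, which are the substrates of these enzymes, were lower in aged muscle for most of the list. Of 15 measured chains 9 fell, 0 rose and 6 did not pass, with a median change of -2.03; over all named genes tested 1.00% were lower and 0.391% higher. At an unadjusted p under 0.05 in limma 12 of the 15 were lower, against 5.61% of tested probe sets, and 0 higher. Here and in the lists below the brightest probe set stands for a gene, whereas the 5.61% is over all tested probe sets. No share per gene was counted at that p. Col11a1, among the 12, had an aged mean log2 signal of 8.47, below the brightness limit. Col1a1, a chain of type I collagen, read 221270, 249237 and 501199 on the young arrays and 8267, 4488 and 5205 on the aged ones. This was 52.3-fold higher in young muscle (-5.71 ± 0.32, adjusted p = 3.26e-06). Its partner Col1a2 was at -4.62 ± 0.22 and the type III chain Col3a1 at -3.89 ± 0.21. Of the type V chains, which set fibril diameter, Col5a2 was at -3.13 ± 0.28 and Col5a1 at -1.38 ± 0.22. The Col5a1 call was lost when young replicate 2 or young replicate 3 was left out, with adjusted p = 0.0635 and 0.0505. It was also lost with the RNA quality covariate (-1.09, adjusted p = 0.13), the station covariate (adjusted p = 0.0602) and no trend (adjusted p = 0.321). The named chains thus ranged from far lower than Pcolce (-2.13) to less changed than it.

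Whether the chains of type I and III collagen changed by other amounts than the enzymes was tested from the log2 ratio within each array, for 10 pairs of genes. These 3 chains had the greatest falls of the named ones, so the direction of their differences from the enzymes follows from the changes given above. The type V chains were not paired, and Col5a1 (-1.38) fell less than Pcolce (-2.13). Relative to Pcolce, Col1a1 was at 3.52, 3.86 and 4.70 on the young arrays and at 0.71, 0.46 and 0.16 on the aged arrays, a difference of -3.58. The groups lay more than 2 log2 units apart. Col1a2 differed from Pcolce by -2.49 and Col3a1 by -1.77. Relative to Serpinh1 the differences were -4.59, -3.50 and -2.78 for Col1a1, Col1a2 and Col3a1, and relative to Lox they were -4.28, -3.19 and -2.46. In each of these 9 ratios every aged array lay below every young array, and each had the smallest p that the design allows (two-sided exact permutation test, p = 0.1, 0.1 after adjustment over the 10 pairs). The direction held in all 18 alternatives for each of the 9, with differences from -4.94 to -1.40. Their sizes depend on the probe set used: the brightest stood for each gene here, and the second one of Col1a1 fell less (-3.69). Since 3 against 3 arrays cannot pass 0.05, the separation of the arrays in these ratios is a description. Pcolce against Serpinh1 differed by -1.01 with the brightest probe sets (exact permutation test, p = 0.1), but by 0.12 with the probe sets of each gene averaged, so which of them fell further depends on the probe set.

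**Figure D3:**
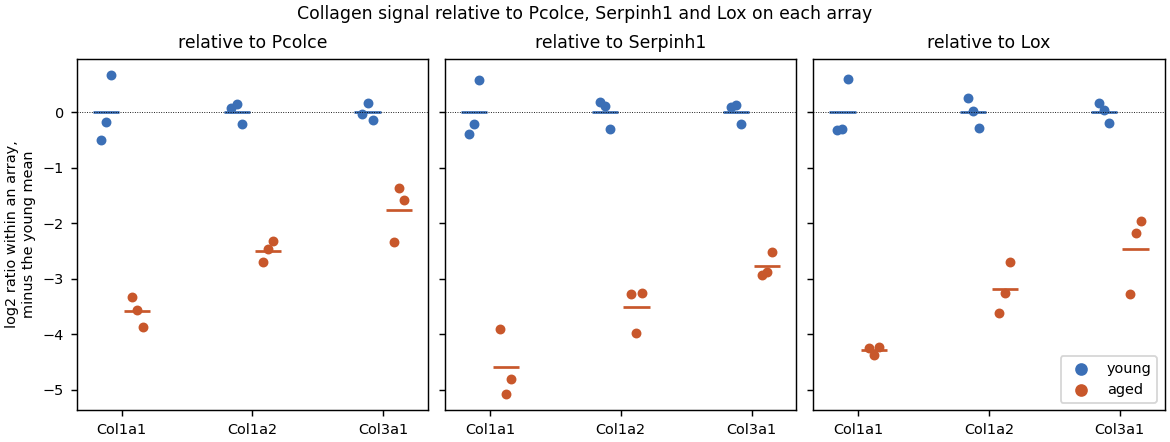
Log2 ratio of the Col1a1, Col1a2 and Col3a1 signals to those of Pcolce (left), Serpinh1 (middle) and Lox (right) within each array, minus the mean of the young arrays. Points are arrays, bars are group means, young in blue and aged in orange. The brightest probe set of each gene is shown. All 3 aged arrays lie below all 3 young arrays in each of the 9 ratios, most widely for Col1a1 relative to Serpinh1 (-4.59).

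Among other enzymes and folding partners of the endoplasmic reticulum 1 gene passed. Of 10 measured genes 1 fell, against 1.00% of named genes, 0 rose and 9 did not pass (median -0.78). At an unadjusted p under 0.05 in limma 3 were lower, against 5.61% of tested probe sets, and 0 higher. Ppib, a prolyl isomerase that speeds helix folding and forms a complex with the prolyl 3-hydroxylase, read 19086, 18168 and 19047 in young and 5058, 7302 and 10570 in aged muscle (-1.36 ± 0.27, adjusted p = 0.0328). Its second probe set was at -0.85 ± 0.31 (adjusted p = 0.336). Leaving out any 1 of the young arrays, aged replicate 51 or aged replicate 52 ended the Ppib call, with adjusted p between 0.0613 and 0.16. Crtap, another member of that complex, was at -1.14 ± 0.87 (adjusted p = 0.696). Tmem38b, a potassium channel of the endoplasmic reticulum, was at 1.04 ± 0.58 (adjusted p = 0.587).

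The remaining steps of the pathway had 0 genes past the test. Among 7 genes of procollagen export (median -0.10), 1 was lower at an unadjusted p under 0.05 in limma, against 5.61% of tested probe sets, and 0 higher. The coat protein gene Sec24d was at -1.01 ± 0.36 (adjusted p = 0.342) with groups that did not overlap, and Creb3l1, a transcription factor of secretory cells, at -0.70 ± 0.91. Among 4 other propeptide proteinases and helpers, 0 were lower and 1 higher at an unadjusted p under 0.05 in limma (median 0.62). The higher one was Furin, at 0.72 ± 0.33, and its groups overlapped. The share of all tested probe sets that were higher at an unadjusted p under 0.05 was not counted. Pcolce2, the paralog of Pcolce, read 2002, 2703 and 1315 on the young arrays and 83.1, 961 and 1500 on the aged arrays. Those groups overlapped at aged replicate 53, and the change was -1.96 ± 0.93 (adjusted p = 0.515). Within the first station it was -4.53 (adjusted p = 0.0404), a value that rests on the single aged array there, and the covariate for the station gave the same change (adjusted p = 0.0268). Adamts3, a proteinase of N-propeptides, was at 1.69 ± 0.84 (adjusted p = 0.532), with all aged arrays above the young ones. Its unadjusted p in limma was not under 0.05. Among 3 other crosslinking enzymes, 0 were below an unadjusted p of 0.05 (median 0.07), with Loxl4 at 0.64 ± 0.83 and Loxl3 at 0.07 ± 0.69.

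Proteins that bind the fibril surface or the enzymes held further genes that fell. Of 10 measured genes 4 fell, against 1.00% of named genes, 0 rose and 6 did not pass, with a median of -1.20. At an unadjusted p under 0.05 in limma 7 were lower, against 5.61% of tested probe sets, and 0 higher. The collagen-binding Sparc read 20391, 19836 and 15780 in young and 2510, 1814 and 2334 in aged muscle (-3.08 ± 0.26), and its other tested probe sets were at -2.82 and 0.01. Periostin, Postn, which binds Bmp1 and so aids the activation of lysyl oxidase, read 13197, 11886 and 16054 against 4308, 3978 and 2750 (-1.91 ± 0.27, adjusted p = 0.00315). Postn passed in 15 of 18 alternatives, and not with the RNA quality covariate (-1.50, adjusted p = 0.0997), the station covariate (adjusted p = 0.0559) or no trend (adjusted p = 0.224). Fibronectin, Fn1, was at -1.63 ± 0.30 (adjusted p = 0.0193), with its other probe set at 1.08 ± 0.93. The fibril proteoglycan Fmod was at -1.46 ± 0.23 (adjusted p = 0.00682). Leaving out any 1 of the young arrays or aged replicate 52 ended the Fn1 call, with adjusted p between 0.0746 and 0.114, and with its probe sets averaged Fn1 was at -0.27. It was also lost with the station covariate (-1.18, adjusted p = 0.176), on the first station alone (adjusted p = 0.0761), when RNA quality was a covariate (adjusted p = 0.121) and with no trend (adjusted p = 0.321). The Fmod call was lost without young replicate 1 or 2 (adjusted p = 0.0563 and 0.0518), and its probe set outside the kind prone to cross-hybridisation was at -0.21 ± 0.46.

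General chaperones of the endoplasmic reticulum and hypoxia-inducible genes were set beside the collagen helpers. Serpinh1 encodes a collagen chaperone of that compartment, and P4ha1, Plod2 and Lox are known hypoxia targets. Of 15 measured chaperones 0 passed (median -0.49). At an unadjusted p under 0.05 in limma 3 were lower, against 5.61% of tested probe sets, and 1 higher. The disulfide isomerase Pdia3 was at -2.23 ± 0.82 (adjusted p = 0.353), with all aged arrays below the young ones, and Sdf2l1 was at -1.71 ± 1.09. Their aged mean log2 signals, 8.41 and 8.33, lay below the brightness limit, so both were tested only through the young arrays. Of 17 measured hypoxia-inducible genes 0 passed (median -0.19). At an unadjusted p under 0.05 in limma 2 of them were lower, against the same 5.61%, and 1 higher. The share of all tested probe sets that were higher at that threshold was not counted. The carbonic anhydrase Car9 was at 1.43 ± 0.88, and its young mean log2 signal of 8.54 lay below the brightness limit. The glycolytic regulator Pfkfb3 was at 1.05 ± 0.37 (adjusted p = 0.327), with all aged arrays above the young ones.

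**Figure D4:**
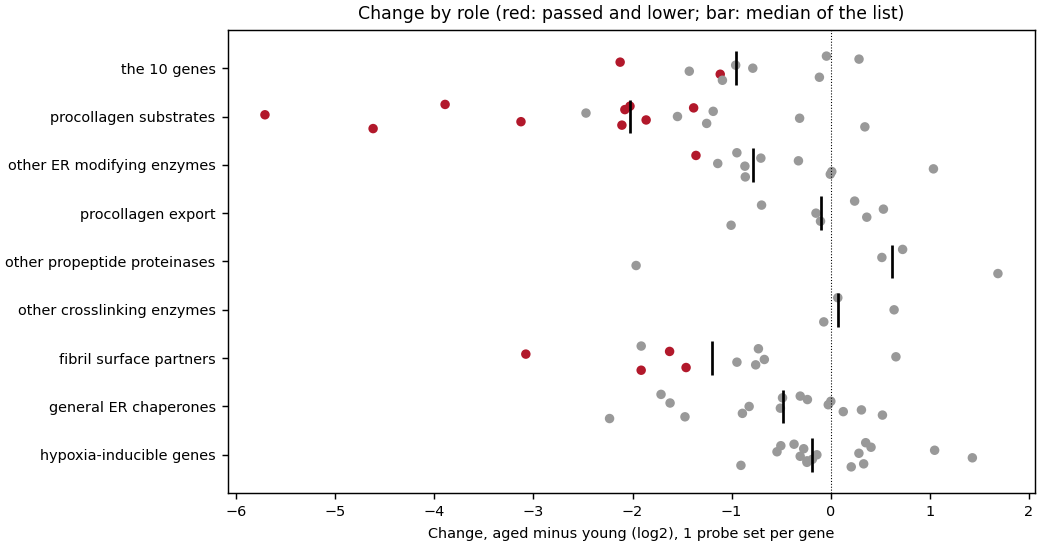
Change (aged minus young, log2) of each measured gene, 1 probe set per gene, by role; red points passed and were lower, black bars are medians. The median was -0.96 for the 9 tested genes of the set, -2.03 for procollagen chains, -1.20 for fibril surface partners and between -0.78 and 0.62 for the other lists.

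Genes whose profiles over the 6 arrays were closest to those of the called genes were found by the root mean square difference of mean-centred log2 signals, over all tested named genes. For Pcolce they were Atp2a2, the calcium pump of slow fibres (0.18 log2 units), the type VI collagen chain Col6a3 (0.19) and the replication factor Mcm5 (0.20). Their changes were -2.05 ± 0.22, -2.08 ± 0.26 and -2.04 ± 0.39, and all 3 passed (adjusted p = 0.000665, 0.00136 and 0.0275). Leaving out any 1 of the young arrays or aged replicate 52 ended the Mcm5 call, with adjusted p between 0.0811 and 0.191, and a probe set of Mcm5 less prone to cross-hybridisation was at -0.31. For Serpinh1 they were the secreted matrix protein Ccdc80 (0.06), the sodium pump regulator Fxyd1 (0.11) and the adhesion protein Lpp (0.11). Ccdc80 read 7573, 6795 and 8470 in young and 3021, 3603 and 3822 in aged muscle (-1.13 ± 0.26, adjusted p = 0.0779). Fxyd1 was at -1.07 ± 0.21 (adjusted p = 0.0263; between 0.0571 and 0.15 when any 1 young array or aged replicate 51 was left out) and Lpp at -0.96 ± 0.24 (adjusted p = 0.118). That is the Lpp probe set with the near profile, and the brightest one of Lpp was at -0.43 ± 0.21 (adjusted p = 0.532).

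Markers of some cells that could carry these transcripts moved as well. Of the cartilage and bone, endothelial and macrophage markers, 4 measured in each list, 0 were called, with medians of 0.58, -0.15 and 0.22. Beside a share of 1.00% lower and 0.391% higher over all named genes, 5 of 10 measured fibroblast markers were called lower and 0 higher, and their summed signal lay between 198284 and 205155 on the young arrays and between 96134 and 99666 on the aged arrays. Pdgfra, which defines fibro-adipogenic progenitors, read 12362, 7290 and 5258 against 6512, 7251 and 6217 (-0.23 ± 0.31, adjusted p = 0.832). Of 8 measured tendon markers 3 were called lower (Fmod, Kera and Tnmd), and Fmod is also one of the fibril surface partners. Scx, Mkx, Comp and Chad did not pass, and their groups overlapped. Thbs4 did not pass either (-1.09 ± 0.29, adjusted p = 0.133), but its aged arrays all lay below the young ones. All 8 tendon markers had a negative change. The summed signal, in which bright genes weigh most, was 75524 to 91415 in young and 22902 to 28784 in aged muscle. Smooth muscle and pericyte markers had 1 of 5 called lower, with sums of 83506 to 98148 and 42861 to 55396. Adipocyte markers went the other way, with 4 of 6 called higher and sums of 78262 to 93629 and 166015 to 300198. Of 6 slow fibre markers 5 were called lower, with sums of 87549 to 114561 and 5489 to 8807. Among the called markers, the fibroblast Mfap5 and the slow fibre Tnnt1 were tested only through their young arrays. Their aged mean log2 signals, 8.66 and 8.29, lay below the brightness limit. Of the 10 skeletal fibre markers 0 were called, and all had a negative change (median -0.64). For 8 of them the aged arrays all lay below the young ones, against 8.74% of all tested probe sets. Each of these 8 was lower at an unadjusted p under 0.05 in limma, against 5.61% of all tested probe sets. The sums of the 10 were 2812012 to 3450000 in young and 1928888 to 2276297 in aged muscle. The part of these shifts in the falls of Pcolce and Serpinh1 was not tested. With the RNA quality ratio as a covariate Pcolce was at -2.30 (adjusted p = 0.0184) and Serpinh1 at -1.16 (adjusted p = 0.15, not passed). The groups did not overlap in that ratio, so a fit with it as a covariate cannot tell age from RNA quality. With the station as a covariate over all 6 arrays Pcolce was at -1.87 (adjusted p = 0.0245) and Serpinh1 at -1.29 (adjusted p = 0.0646, not passed). Within the first station the changes have the same sizes, and they rest on 1 aged array that is assumed to vary like the young ones.

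**Figure D5:**
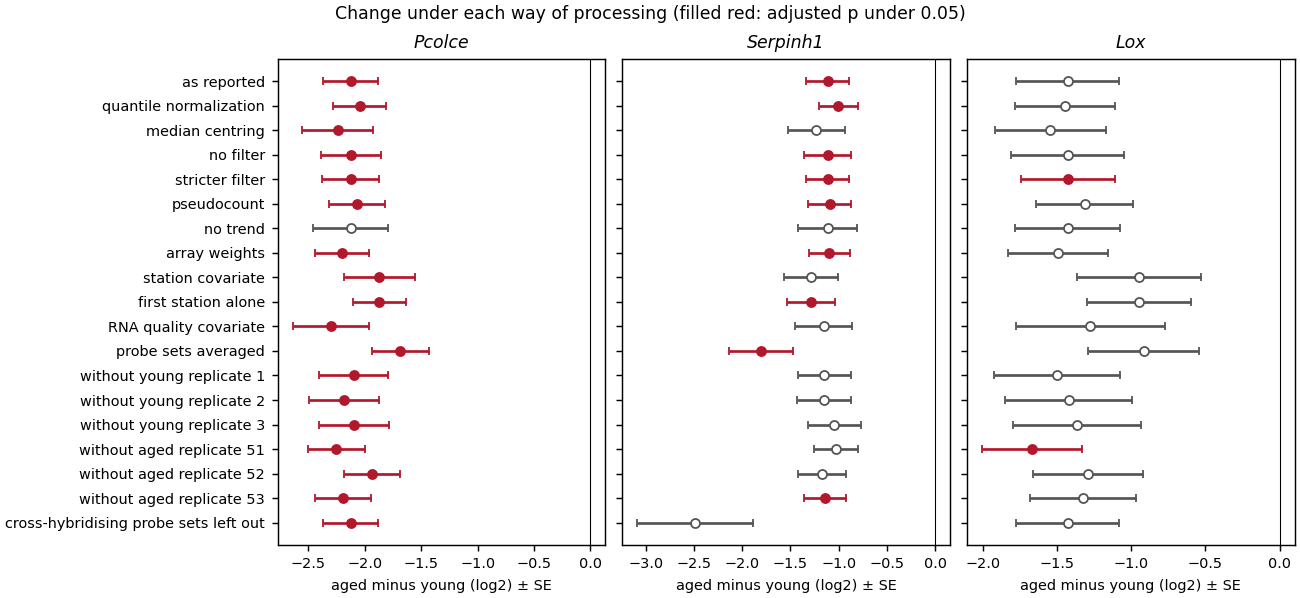
Change (aged minus young, log2, ± SE) of the Pcolce, Serpinh1 and Lox genes as reported (top) and under each of 18 alternatives; filled red points have an adjusted p under 0.05. Pcolce passed in 17, Serpinh1 in 8 and Lox in 2 of the alternatives, and all values are below 0.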

How the data were processed

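Total RNA of gastrocnemius muscle was biotin-labelled and run on 6 Affymetrix arrays, per the labels' protocols. The values the authors deposited are linear intensities, 1 for each probe set. The submitters' processing notes name MAS5, whose version is not given in the sources used here. Each array's mean, after leaving out 2% of probe sets at each end, was 1500. Such scaling assumes alike trimmed means, and dim MAS5 signals vary more on the log scale.

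After 64 control probe sets were left out, deposited intensities were taken to log2, and probe sets with a mean below the median of 9.08 (signal 540) were not tested. limma 3.58.1 in R 4.3.3 (lmFit, eBayes with a trend of spread with brightness, two-sided) was fitted on the remaining 22519 and tested on simulated data. The tested probe set with the highest mean signal stands for a gene. The platform's gene table gave 34958 probe sets 1 symbol, 34754 of them matched RefSeq by gene ID, and 0 symbols were updated. Named are the 10 genes, 5 fibrillar collagen chains, up to 4 called genes per role list (or the 2 with the greatest change if under 2 passed), and the 3 nearest profiles to each called gene. Values are also given for Pdgfra, chosen after its values were seen. Alternatives were other scalings, filters and spread models, a pseudocount of 219, covariates, averaged probe sets and each array left out; leaving out probe sets ending in _x_at or _s_at, and differences between genes under each setting, were added after seeing the data. The members and lists were chosen with earlier results of these data known. Figures used matplotlib 3.10.9 in Python 3.11.15.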

Additional observations from a re-analysis of the deposited data

How the results depend on the processing

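No paired analysis was possible because the young and aged replicates share no numbers. The count of genes of the set called lower, 2 as reported, was 1 with median centring, with the station or RNA quality covariate and with cross-hybridising probe sets left out (Pcolce each time). It was 0 without the trend of spread with brightness, where limma gave 3 lower at an unadjusted p under 0.05, and 1 to 2 with 1 array left out. The count of pathway genes called lower, 14 as reported, was 4 without the trend, 9 with the RNA quality covariate and 9 to 18 with 1 array left out. Probe sets called, 237 as reported, numbered 21 without the trend, 365 on the first station alone, 138 with the RNA quality covariate and 124 to 342 with 1 array left out. The 124, 131, 149 and 152 came without young replicate 2, young replicate 1, aged replicate 52 and young replicate 3. Median centring moved the median over tested probe sets from 0.0079 to -0.11, and Serpinh1 was at -1.23 there (adjusted p = 0.0967).

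Pcolce, Serpinh1, Lox, Bmp1 and Plod3 kept a negative change in all alternatives that measured them. Signs that turned belonged to changes that had not passed. With the RNA quality covariate these were Plod2 (0.68), Loxl1 (0.44), P4ha1 (0.013) and Crtap (0.08). On the first station alone, and equally with the station covariate, they were Loxl1 (0.41) and Sdf2l1 (0.16). Array weights turned Plod2 (0.046) and Loxl3 (-0.10), and median centring turned Loxl3 (-0.045). With 1 array left out, Plod2 ranged from -0.80 to 0.71, Loxl1 from -0.27 to 0.20, P4ha2 from -0.0043 to 0.69 and Loxl3 from -0.63 to 0.49. The difference of Pcolce and Serpinh1 turned with averaged probe sets (0.12) and with cross-hybridising probe sets left out (0.36). The cause was not tested. The stricter filter left Bmp1, Plod2 and P4ha1 unmeasured. The table holds no detection calls, so dim probe sets could not be told from absent ones.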
